A study of Rattus norvegicus with 8 samples.

Results

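Glutamate transporters of the plasma membrane and of synaptic vesicles are described here in hippocampal neurons of the CA3 subfield taken from the rat brain 24 hours after traumatic injury. The members were the genes Slc1a1, Slc1a2 and Slc1a3 of the plasma membrane and Slc17a6 and Slc17a7 of the vesicle membrane. Every probe that the array's own annotation assigned to 1 of these names was taken, whatever its signal. This gave 7 probes for 5 genes, of 41012 probes and 35561 gene names on the array, and for 6 of the 7 probes the accession matched a RefSeq transcript of the same symbol.

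All animals were male Sprague-Dawley rats, and the brains were sampled 24 hours after a moderate fluid percussion injury or after sham injury, while naive rats received no treatment. Frozen sections were stained with Fluoro-Jade, a fluorescent dye for degenerating neurons, and cells were collected singly by laser capture microdissection. In injured rats, Fluoro-Jade-positive neurons formed the dying group and Fluoro-Jade-negative neurons the surviving group, in pools of about 600 neurons from several rats, and each of the 4 groups was hybridised to 2 one-colour arrays after amplification of the polyadenylated RNA. The labels name 2 amplification kits and do not say which array had which. They also do not tie a pool to particular rats, so the p-values below measure the spread between arrays, and surviving and dying pools may come from the same animals. The labels and methods give no age of the rats.

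Glutamate is the main excitatory transmitter of the brain, and no extracellular enzyme breaks it down, so its signal ends by uptake through sodium-coupled carriers of the Slc1 family. Slc1a1 (EAAC1) is the carrier of neurons, on cell bodies and dendrites, and also brings in cysteine for glutathione synthesis, while Slc1a2 (GLT-1) and Slc1a3 (GLAST) are best known from astrocytes and Slc1a2 is present at lower levels in hippocampal pyramidal cells and their terminals. Slc17a7 (VGLUT1) and Slc17a6 (VGLUT2) load glutamate into vesicles with the energy of a proton gradient, the former being typical of cortical and hippocampal pyramidal neurons and the latter of thalamic and other subcortical neurons.

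Levels are given as the log2 of the probe's signal divided by the median signal of its array, so that 0 is the median probe and a difference of 1 is a doubling. The median signal itself was 27.2 and 22.7 on the naive arrays, 16.5 and 16.4 on the sham arrays, 52.2 and 48.2 on the surviving arrays, and 19.2 and 52.6 on the dying arrays. The share of probes well above background, a mark set by the scanner software, ran from 49.2% on sham replicate 2 to 71.7% on surviving replicate 1. Sham and naive arrays lay together on 1 slide and surviving and dying arrays on another, and the headers name a different protocol of the image-reading software for each slide, so in every comparison with sham the injury and the slide cannot be told apart. The comparisons of surviving with dying and of sham with naive neurons lie within a slide.

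The dying replicates stood apart from each other. Over 15231 probes with a value and signal above background on every array, the correlation across probes was 0.890 between the dying replicates, against 0.966 between the naive, 0.985 between the sham and 0.976 between the surviving replicates. Dying replicate 2 correlated at 0.933 and 0.941 with the surviving arrays, more closely than with dying replicate 1. Transporter differences that involve the dying neurons are therefore also given without each of these arrays.

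The cell type was checked against marker genes. Of the 6 pyramidal markers, 4 had a probe, and Nrgn, Camk2a and Neurod2 were well above background on all 8 arrays, while Grik4, a kainate receptor subunit typical of CA3, was above it on 7. The Grik4 level was between 3.61 and 5.25 on those 7 arrays and -1.07 on dying replicate 1. The captured material thus carried pyramidal transcripts on every array, with Grik4 missing the mark on dying replicate 1. Markers of other cell types were present too, with 7 or 8 of the 9 astrocyte markers that had a probe, 7 to 9 of 10 microglial and macrophage markers, 5 of 6 oligodendrocyte markers, 3 or 4 of 5 endothelial markers and 5 or 6 of 6 interneuron markers well above background on each array. The microglial gene Tmem119, the oligodendrocyte gene Ugt8 and the endothelial gene Tek were well above background on no array.

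The summed signal of these lists, as multiples of the array median, differed between groups. The gene called brightest in a list has the highest mean over the 8 arrays and need not lead on each. The neuron-wide list (Snap25, Syt1, Tubb3 and Nefl, brightest for Snap25, with Tubb3 above it on both surviving arrays and dying replicate 1) summed to 1621 and 2112 in naive, 3127 and 2282 in sham, 1166 and 661 in surviving cells and 264 and 399 in dying cells. The pyramidal list, brightest for Nrgn, summed to 4691 and 6773, 8669.6 and 7857, 5480.0 and 5677, and 2979 and 3026 in the same order of groups. Both neuronal sums were thus lowest on the dying arrays. The pyramidal sum was nearly all Nrgn, with 2960 of 2979 and 2910 of 3026 on the dying arrays. On dying replicate 2, Neurod2 (6.14) and Grik4 (4.97) were above every naive and sham array, and Camk2a (3.87) was below all of them but naive replicate 1. On dying replicate 1, Camk2a (1.76) and Grik4 were at their lowest, and Neurod2 (3.93) was below all but naive replicate 1. In limma, 2 of 4 neuron-wide markers fell in dying against sham neurons (Snap25 and Tubb3), with a median difference of -2.96, and 1 of 4 pyramidal markers (Nrgn), with a median of -1.69 that stayed below 0 under each other scaling, where no pyramidal marker passed. Of all 25629 probes tested in this comparison 29.0% were lower and 15.1% higher. Without dying replicate 1 the pyramidal median was -0.34 and 0 of 4 fell, while 3 of 4 fell without dying replicate 2.

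The microglial and macrophage list, brightest for C1qb, ran the other way, and 4 of its 8 tested genes rose in dying against sham neurons (Cd68, C1qa, C1qb and Tyrobp; 0 with normexp), where 15.1% of all probes tested were higher. Its sums were 131 and 259 in naive, 268 and 250.0 in sham, 309 and 344 in surviving cells and 1971 and 1069 in dying cells. For endothelium, brightest for Vwf, the sums were 45.6 and 74.6, 84.3 and 64.5, 55.6 and 50.3, and 250.5 and 123. Astrocyte markers, brightest for Glul, summed to 546 and 722 in naive, 864 and 619 in sham, 270 and 307 in surviving cells, and 481 and 215 in dying cells. These astrocyte sums were lower on all 4 arrays of the injured slide than on the 4 others, and dying replicate 1 was the highest of the injured slide. On that array Aldoc (log2 level 7.87) and Gjb6 (7.21) led and Glul was at 5.75, its lowest on any array. The oligodendrocyte list, brightest for Mog, summed to 180.5 and 272, 233 and 304, 62.7 and 67.3, and 180.0 and 75.6, and the interneuron list, brightest for Pvalb, to 330.2 and 453, 416 and 394, 164 and 147, and 676 and 159. In both, dying replicate 1 lay far above dying replicate 2. For the oligodendrocyte list the gap came through Mog (7.08 against 4.82). Mbp (3.83 against 3.43) and Mobp (2.88 against 2.84) were close on these arrays, and Mag and Cnp1 were lower on dying replicate 1. For the interneuron list the gap came through Sst (8.50) and Vip (7.85), with Pvalb at 5.85. In dying against sham neurons 2 of 4 endothelial markers rose (0 with normexp and without sham replicate 1; 1 without dying replicate 1 and 3 without dying replicate 2), 2 of 5 oligodendrocyte markers fell (0 under the other scalings and with normexp; 1 without either dying array) and 2 of 6 interneuron markers fell (1 under the other scalings and without dying replicate 1), where 29.0% of all probes tested were lower. In such pools fewer cells of a type and less RNA per cell cannot be told apart, and the part of these shifts in the transporter values below was not tested.

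**Figure D1:**
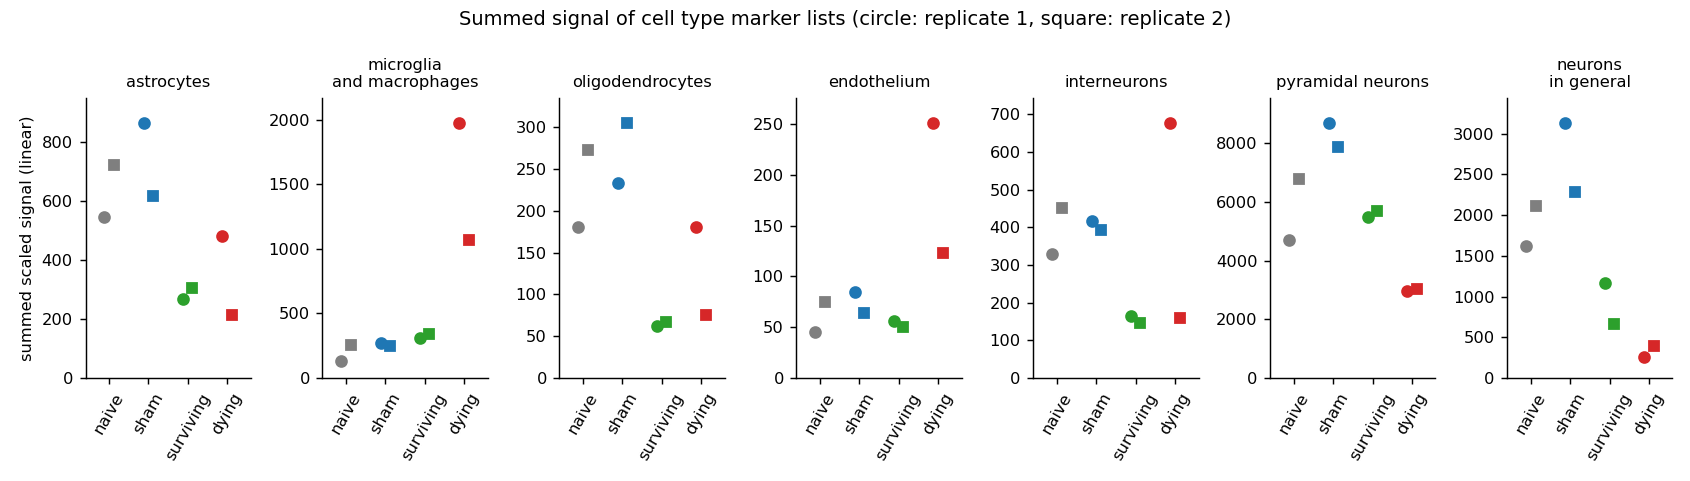
Summed signal of each marker list (vertical axis, linear, as multiples of the array median) on each array, by group; circles are replicate 1 and squares replicate 2. The neuron-wide sum is lowest in dying neurons (264 and 399) and the microglial and macrophage sum highest there (1971 and 1069).

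Slc1a1, the neuronal uptake carrier, was measured by probe A_44_P251706, printed in 10 spots per array and well above background in all of them. Its level was 4.75 and 5.18 in naive, 5.63 and 5.27 in sham, 4.06 and 3.67 in surviving neurons, and only 1.84 and 3.02 in the dying. The groups did not overlap, in the order sham, naive, surviving and dying from high to low, and the nearest neighbours, sham and naive, differed by less than their spread allows to call (0.49, SE 0.52, adjusted p = 0.886). Before scaling, the mean signal of the 10 spots was 817 and 633 in sham, 873 and 613 in surviving cells, and 68.7 and 426 in dying cells. The surviving and sham arrays thus overlapped in raw signal, and the surviving level is lower once the arrays are scaled, whereas both dying arrays were below sham in raw signal as well.

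Dying neurons had 8.13-fold less Slc1a1 than sham neurons (log2 difference -3.02, SE 0.53, limma adjusted p = 0.00448), with both dying arrays below both sham arrays. Relative to the median of all probes tested, itself at -0.46, the difference was -2.56. The difference itself shrank to -2.30 with 75th percentile scaling, and its smallest size over the other settings was -2.01. It was -2.44 without dying replicate 1 (adjusted p = 0.0171) and -3.61 without dying replicate 2 (adjusted p = 0.00233), and only the normexp background correction, under which no probe of the array passed, ended the call (-2.22, adjusted p = 0.519). The surviving neurons lay between sham and dying neurons. Their difference from sham was -1.58 (SE 0.53, adjusted p = 0.0709) and their difference from dying neurons 1.44 (95% interval 0.21 to 2.67, adjusted p = 0.181), and neither passed. Against sham the surviving neurons did pass in a fit of the 4 arrays compared (adjusted p = 0.0157), where 12164 of 26910 probes passed. The difference itself was as before in that fit and without either dying array. It shrank to -0.80 with 75th percentile scaling, -0.54 with quantile normalization, -0.61 with scaling to the probes well above background, -0.71 with the authors' values and -0.49 with normexp, and passed in none of these (adjusted p from 0.288 to 0.989). Without dying replicate 2, surviving exceeded dying neurons by 2.03 (adjusted p = 0.0317), and without dying replicate 1 by 0.85 (adjusted p = 0.478).

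Slc1a2 had 2 probes, which did not give the same picture. A_44_P226231, designed to a GLT1a splice variant and printed in 10 spots, was well above background on none of the 8 arrays, with a mean unscaled signal between 3.004 and 9.18. Hence no fold is given for it. A_44_P545654, in 1 spot, was well above background on all 8 arrays, with levels of 4.12 and 4.97 in naive, 5.35 and 4.70 in sham, 4.11 and 3.95 in surviving cells, and 2.49 and 2.97 in dying cells.

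For that second probe the dying arrays were the lowest, also before scaling and in the authors' values. With this scaling sham and naive overlapped, and surviving neurons lay just under naive and above dying neurons. Before scaling the surviving arrays (898 and 743) were above every sham and naive array, and in the authors' values they overlapped both groups. The drop from sham to dying neurons was 4.91-fold (log2 difference -2.29, SE 0.50, adjusted p = 0.00925), and -1.83 relative to the median probe. It kept its side of the threshold without dying replicate 1 (-2.06, adjusted p = 0.0393) and without dying replicate 2 (-2.53, adjusted p = 0.0106), but not without sham replicate 1 (-1.97, adjusted p = 0.0870) or with normexp (-1.80, adjusted p = 0.523). The drop shrank to -1.57 with 75th percentile scaling, -1.32 with quantile normalization and -1.50 with the authors' values, and passed in each. Its smallest size over the other settings was -1.28. The surviving neurons differed from sham by -0.997 (adjusted p = 0.184) and from dying neurons by 1.298 (95% interval 0.14 to 2.46, adjusted p = 0.195), neither of which passed. The latter was 1.06 without dying replicate 1 and 1.53 without dying replicate 2. Against sham, the sign itself turned with quantile normalization (0.042) and with normexp (0.057).

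Slc1a3, the carrier of astrocytes and radial glia, had 2 probes to the same reference transcript, both well above background on all 8 arrays. A_42_P533183 gave 9.18 and 9.31 in naive, 9.97 and 9.35 in sham, 8.58 and 8.64 in surviving cells, and 9.88 and 8.70 in dying cells. A_44_P167719 gave 4.58 and 4.81 in naive, 5.46 and 4.80 in sham, 3.16 and 3.19 in surviving cells, and 3.74 and 3.62 in dying cells. On both probes the surviving arrays were alike, at 1.05- and 1.02-fold between replicates, and the lowest with this scaling. On the first probe naive replicate 2 and sham replicate 2 lay below them in the authors' values, and before scaling the surviving arrays were the lowest on neither probe. On the dying arrays the probes parted, since the first was 2.27-fold higher in replicate 1 than in replicate 2 and overlapped sham, while the second was 1.08-fold apart and lay below every sham and naive array.

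The second Slc1a3 probe passed the threshold against sham in surviving neurons (log2 difference -1.95, SE 0.44, adjusted p = 0.0243) and in dying neurons (-1.45, SE 0.44, adjusted p = 0.0302). The first passed in neither, with -1.05 (adjusted p = 0.184) and -0.37 (adjusted p = 0.572). Beyond the median probe, the shift of the second was -1.53 in surviving and -0.99 in dying neurons. Its call was lost in both comparisons with 75th percentile scaling, quantile normalization, scaling to the probes well above background, the authors' own values, normexp, and the loss of either sham or either surviving array. Surviving minus sham shrank to between -1.17 and -0.67 under these scalings, the authors' values and normexp but stayed between -2.29 and -1.62 without single arrays. Dying minus sham was -0.72, -0.33, -0.43, -0.65 and -1.31 in the order of these settings, and from -1.78 to -1.12 without single arrays. In dying against sham the call was lost as well without dying replicate 1 (-1.51, adjusted p = 0.0618), with no filter, with the replicate block and in a fit of the 4 arrays compared, and it was just kept without dying replicate 2 (-1.39, adjusted p = 0.0495). In dying neurons the first probe turned positive under each of those scalings and under the authors' values (0.35, 0.56, 0.64 and 0.43) and without dying replicate 2 (0.22), and it was -0.96 without dying replicate 1. Surviving neurons were lower than dying neurons on both probes, by -0.68 (95% interval -1.89 to 0.54) and -0.50 (-1.53 to 0.52), which did not pass (adjusted p = 0.490 and 0.544) and turned positive with normexp (0.82 and 0.63). On the first probe the difference was -0.085 without dying replicate 1 and -1.27 without dying replicate 2, so it rests on dying replicate 1, and on the second it was -0.44 and -0.56. Beside these values stand the astrocyte markers, of which 8 of 10 were tested in each comparison, with a median difference of -0.78 from sham in surviving and -0.87 in dying neurons; with scaling to the probes well above background these medians turned to 0.19 and 0.15. Of these markers, 1 rose (Fgfr3) and 1 fell (Gja1) in surviving neurons, where 6.82% of all probes tested were higher and 12% lower. In dying neurons 1 of these markers rose (Fgfr3) and 2 fell (Gja1 and Glul), beside 15.1% and 29.0%. Their part in the Slc1a3 values was not tested.

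**Figure D2:**
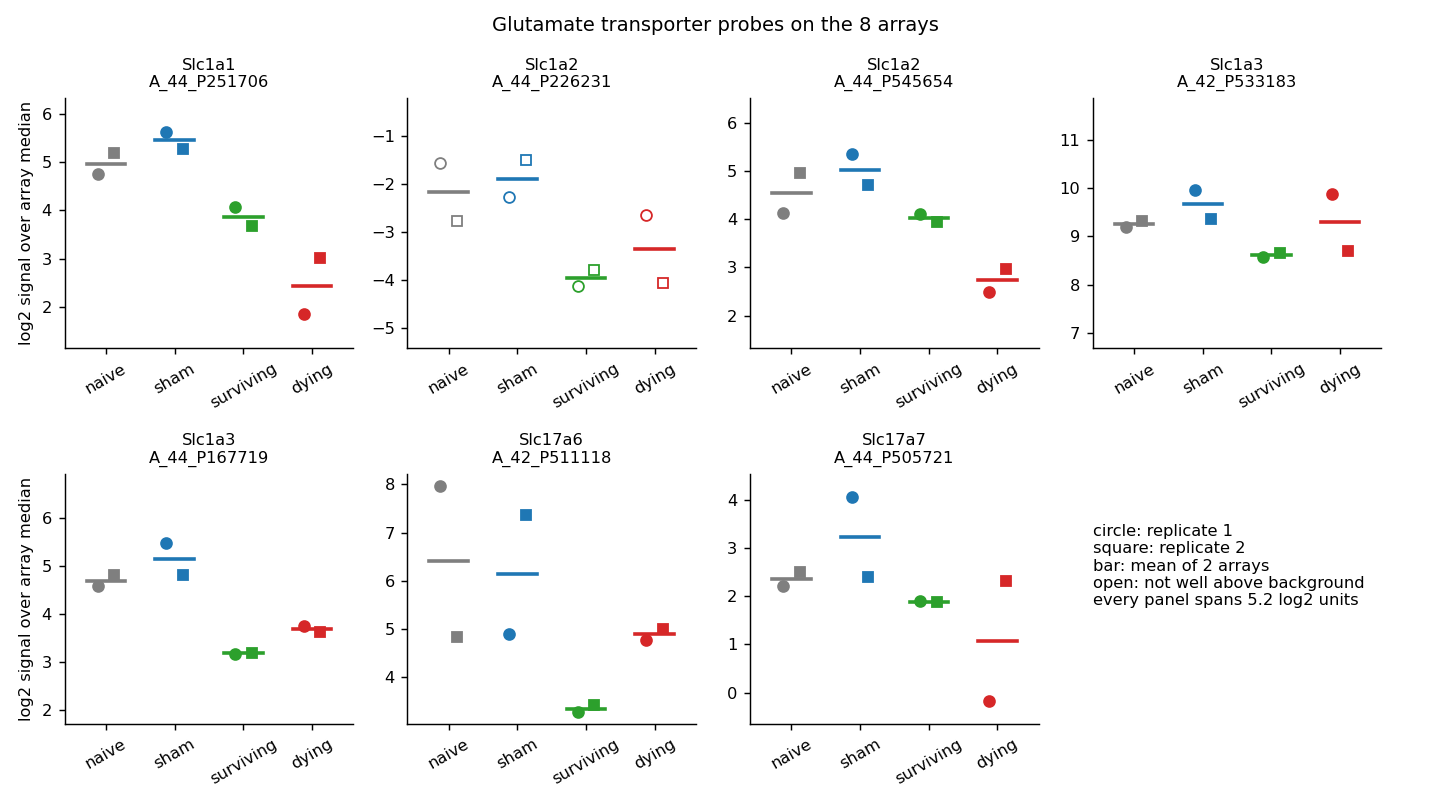
Level of each transporter probe (vertical axis, log2 signal over the array median, the same span in every panel) on each of the 8 arrays, by group; bars are means of 2 arrays and open symbols arrays on which the probe was not well above background. Slc1a1 and Slc1a2 A_44_P545654 are lowest in dying neurons, both Slc1a3 probes (not with normexp) and Slc17a6 are lowest in surviving neurons, and Slc17a6 splits the naive (7.98 and 4.84) and the sham arrays (4.90 and 7.38).

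Slc17a7, the vesicular carrier of pyramidal neurons, was measured by A_44_P505721 in 1 spot, well above background on all 8 arrays. Its level was 2.21 and 2.50 in naive, 4.06 and 2.41 in sham, 1.90 and 1.88 in surviving cells, and -0.17 and 2.31 in dying cells. The surviving replicates were within 1.01-fold of each other, whereas sham replicates differed 3.15-fold and dying replicates 5.57-fold, and dying neurons spanned the surviving level. The differences were -1.34 for surviving against sham (adjusted p = 0.284), -2.16 for dying against sham (adjusted p = 0.0676) and 0.82 for surviving against dying neurons (95% interval -1.16 to 2.79, adjusted p = 0.615), and none passed. The last was -0.42 without dying replicate 1 and 2.06 without dying replicate 2. Dying against sham passed with the filter on all 4 arrays (adjusted p = 0.0463), where 7235 of 16359 probes passed. The difference was -3.40 without dying replicate 2, but shrank to -0.92 without dying replicate 1, -1.33 without sham replicate 1 and -0.75 with normexp. Surviving against sham was -0.52 without sham replicate 1 and -2.17 without sham replicate 2, and shrank to between -0.65 and -0.37 under the other scalings, the authors' values and normexp. The low value in dying neurons is thus a value of replicate 1, where the unscaled signal was 17.1 against 261 on replicate 2.

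Slc17a6, the vesicular carrier of subcortical neurons, gave the least even values among the members. Probe A_42_P511118, printed in 10 spots and well above background in all of them, had a level of 7.98 and 4.84 in naive, 4.90 and 7.38 in sham, 3.27 and 3.42 in surviving cells, and 4.77 and 5.004 in dying cells. Naive replicate 1 and sham replicate 2 stood high, the other naive and sham arrays were level with the dying arrays, and both surviving arrays were the lowest of the 8, as they were in the authors' values. Before scaling they were not, with 505 and 515 next to 492 on sham replicate 1 and 526 on dying replicate 1. The replicates differed 8.80-fold in naive and 5.56-fold in sham neurons, but 1.11-fold in surviving and 1.17-fold in dying neurons.

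The 10 spots of naive replicate 1 had a mean unscaled signal of 6858 (SD 204) and those of naive replicate 2 of 651 (SD 18.4), and the means were 492 (SD 15.0) and 2722 (SD 69.4) on the sham arrays. Spot variation was thus about 3% of the mean on these 4 arrays, and larger on the slide of the injured neurons, at 19.5% and 15.9% on the surviving and 31.2% and 6.63% on the dying arrays. Among probes above background on every array, 0.220% had as large a gap between the naive replicates and 0.204% as large a gap between the sham replicates. Where the gaps arose was not tested.

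With that spread, no difference of Slc17a6 between groups passed. The difference was -2.79 for surviving against sham (SE 1.09, adjusted p = 0.105), -1.25 for dying against sham (SE 1.07, adjusted p = 0.357), -1.54 for surviving against dying (SE 1.08, 95% interval -4.05 to 0.96, adjusted p = 0.443) and -0.27 for sham against naive neurons (SE 1.07, adjusted p = 0.947). The last changed sign with the array left out, from -1.84 to 1.297. Surviving against sham passed in a fit of the 4 arrays compared alone (adjusted p = 0.0343), where 12164 of 26910 probes passed. The difference ran from -1.55 without sham replicate 2 to -4.03 without sham replicate 1 and was -1.67 with normexp. Dying against sham was -0.011 without sham replicate 2 and -2.49 without sham replicate 1, and -1.13 and -1.36 without dying replicates 1 and 2. It shrank to -0.52 with 75th percentile scaling, -0.075 with quantile normalization, -0.23 with scaling to the probes well above background and -0.44 with the authors' values. Surviving neurons were lower than dying neurons on both arrays of each, within their slide, at -1.66 and -1.43 without dying replicates 1 and 2, though at only -0.16 with normexp.

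**Figure D3:**
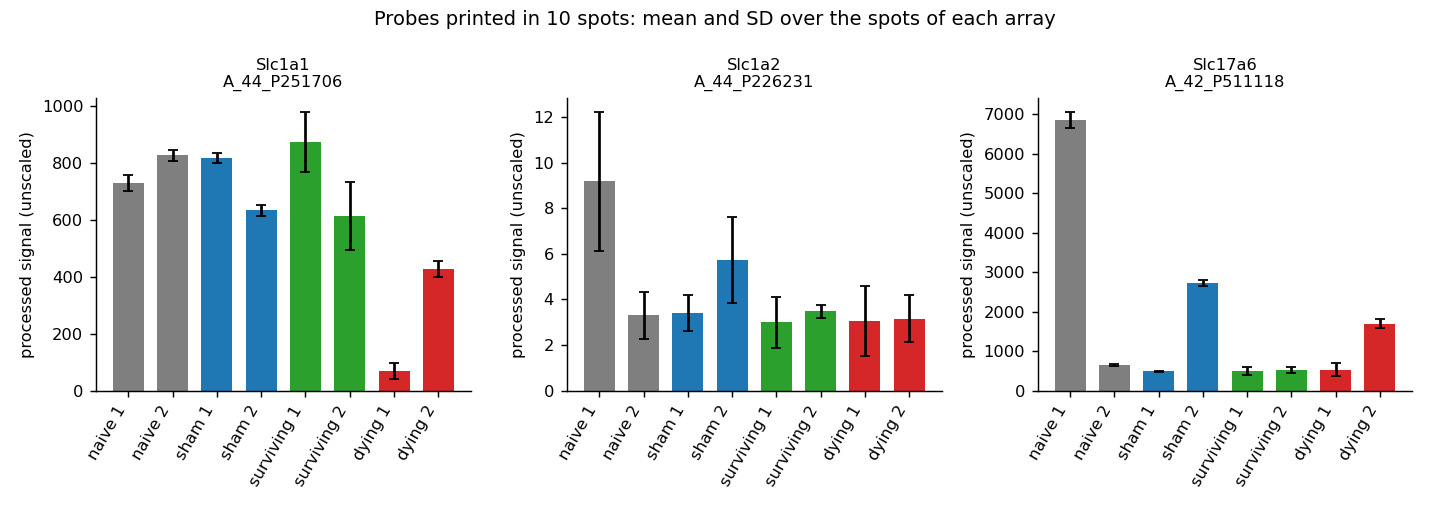
Mean processed signal before scaling (vertical axis, linear) of the 3 transporter probes printed in 10 spots, with the SD over the spots as error bars, on each array. For Slc17a6 the naive replicates (6858 and 651) and the sham replicates (492 and 2722) lie far apart, and Slc1a2 A_44_P226231 stays under 10 on every array.

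The comparison of surviving with dying neurons asks what distinguishes neighbouring cells with a different outcome. Of the 6 transporter probes tested, 0 passed an adjusted p of 0.05 in limma, as did 0 of 27404 probes on the array (0%). At an unadjusted p under 0.05 there were 2 of 6, Slc1a1 and Slc1a2 A_44_P545654, both higher in surviving neurons, beside 21.5% of all probes tested. The values of the groups did not overlap for 5 of the 6 probes, beside 51.6% of all probes. The members split in direction, with Slc1a1, Slc1a2 and Slc17a7 higher and Slc1a3 and Slc17a6 lower in surviving neurons (Slc1a3 higher with normexp, Slc17a7 lower without dying replicate 1), and the median member difference of 0.16 was next to the median of all probes tested, 0.14. Without dying replicate 2, 5989 probes of the array passed, among them Slc1a1, and without dying replicate 1 there were 0.

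Against sham, 3 of the 6 transporter probes tested passed in dying neurons, 1 each of Slc1a1, Slc1a2 and Slc1a3, all lower, where 44.0% of 25629 probes passed in either direction, 15.1% higher and 29.0% lower. At an unadjusted p under 0.05 there were 4 of 6 beside 54.2% of all probes, and the groups did not overlap for 4 of 6 beside 76.0%. In surviving neurons 1 of 6 passed, the second Slc1a3 probe, where 18.9% of 26910 probes passed, 6.82% higher and 12% lower, and 3 of 6 had an unadjusted p under 0.05 beside 36.9%. The groups did not overlap for 6 of 6 beside 76.7%. In the authors' values they did overlap for Slc1a2 A_44_P545654, the first Slc1a3 probe and Slc17a7. The shares of the 6 probes were not tested against those of the array. The median member difference was -1.81 in dying and -1.46 in surviving neurons, beside -0.46 and -0.42 for all probes tested. Both comparisons use the same sham arrays, so an uneven sham replicate enters both.

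The direction of the whole array against sham depended on the scaling. With the median of all probes, 65.8% of the calls in dying and 63.8% in surviving neurons were lower than sham; with the 75th percentile these shares were 40.3% and 26.5%, with quantile normalization 43.7% and 40.6%, with the probes well above background 31.0% and 20.01%, and with the authors' values 37.0% and 24.7%. The median probe moved with them, in dying neurons from -0.46 to 0.27, 0.21, 0.56 and 0.34. Dividing an array by 1 constant moves all its probes above the floor alike. For Slc1a1 and Slc1a2 A_44_P545654, only quantile normalization among these settings changed the difference relative to the median probe beyond rounding, to -2.30 and -1.54. Both probes passed in each of the 4.

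**Figure D4:**
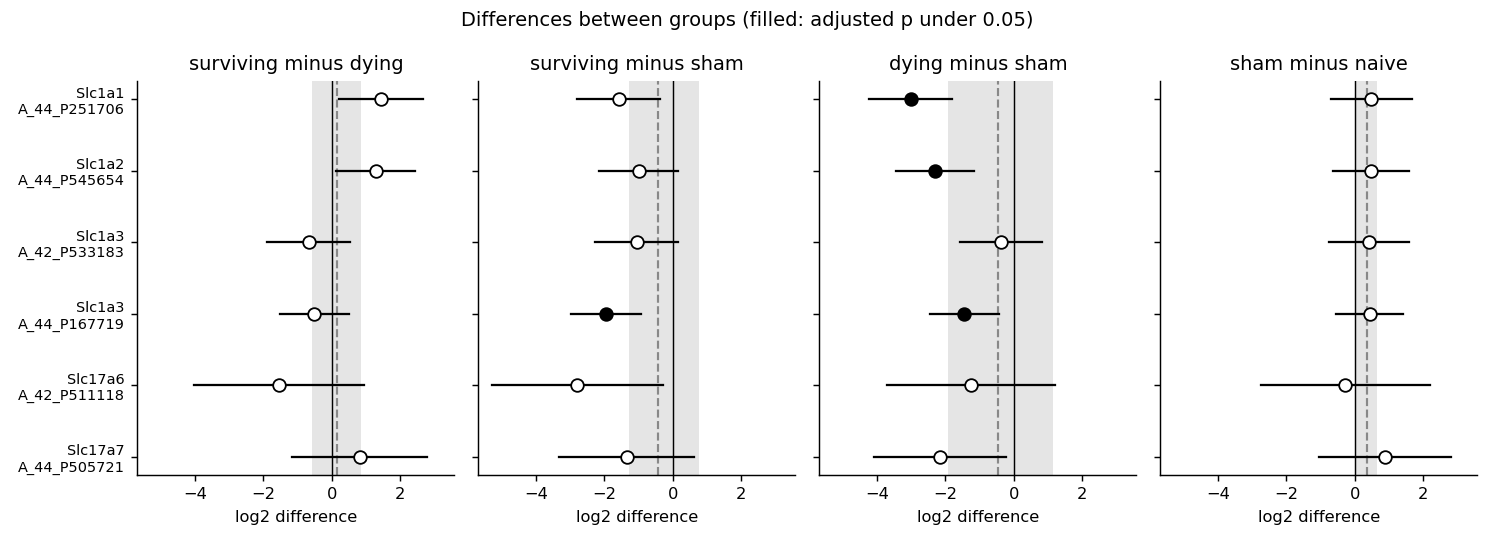
Log2 difference of each tested transporter probe with its 95% interval (horizontal axis) in the 4 comparisons; filled points passed an adjusted p of 0.05, the dashed line is the median of all probes tested and the grey band their middle quartiles. The filled points are Slc1a1, Slc1a2 and the second Slc1a3 probe in dying minus sham and the second Slc1a3 probe in surviving minus sham.

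**Figure D5:**
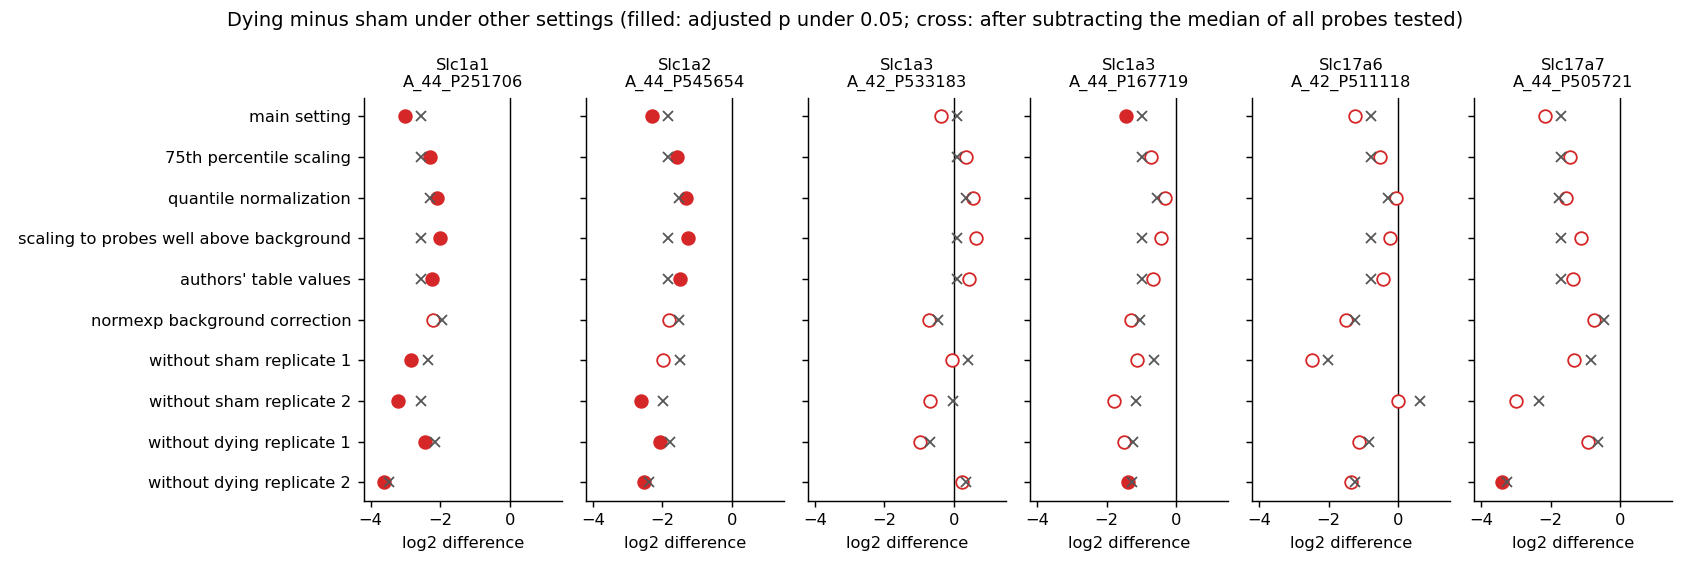
Log2 difference of dying minus sham (horizontal axis) for each transporter probe under other scalings, the authors' values, another background correction and without single arrays; filled circles passed, and crosses show the value after the median of all probes tested is subtracted. Slc1a1 stays between -3.61 and -2.01, while the circles of the first Slc1a3 probe lie on both sides of 0.

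Sham surgery alone was compared with no treatment on the other slide. Of the 6 transporter probes, 0 passed, as did 0 of 20739 on the array (0%), and at an unadjusted p under 0.05 there were 0 of 6 beside 4.83%. Slc1a1 was higher in sham by 0.49 (95% interval -0.70 to 1.67), Slc1a2 A_44_P545654 by 0.48 (-0.64 to 1.595), Slc1a3 by 0.41 (-0.010 with quantile normalization) and 0.44, and Slc17a7 by 0.88 (-1.06 to 2.81), where the median probe differed by 0.37 (0.08 with 75th percentile scaling). With quantile normalization Slc1a1 was at 0.046, Slc1a2 at 0.054 and Slc17a7 at 0.55, and with normexp they were at 1.24, 1.105 and 0.87. Over the other settings the Slc1a3 probes ran from -0.010 to 1.41 and from 0.0185 to 1.11. Without single arrays these ran from 0.27 to 0.71 for Slc1a1, from 0.056 to 0.90 for Slc1a2, from 0.10 to 0.72 and from 0.11 to 0.77 for the Slc1a3 probes, and for Slc17a7 from 0.049 without sham replicate 1 to 1.705 without sham replicate 2. The values of the groups did not overlap for 2 of the 6 probes, beside 42.8% of all probes tested.

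Other genes of glutamate handling were examined with 30 names in 6 lists, of which 28 had a probe, each read by its brightest. In dying against sham neurons 24 were tested, of which 2 rose and 10 fell, with a median difference of -1.75 beside -0.46 for all probes, of which 15.1% were higher and 29.0% lower. The vesicular proton pump, which energises vesicular loading, had 5 of 7 tested genes lower (3 without dying replicate 1, 1 without sham replicate 1 and with quantile normalization, 0 with normexp), with Atp6v1b2 at -2.72 (adjusted p = 0.00889) and Atp6v1e1 at -4.32 (adjusted p = 0.00283). In glutamate and glutamine turnover 2 of 5 fell, namely Gls2 (-1.91, adjusted p = 0.0132) and glutamine synthetase Glul (-2.01, adjusted p = 0.0104). Glul is an astrocyte enzyme that also stands in the astrocyte list. Of the glutamine carriers 2 of 3 fell, Slc38a2 by 1.89 (adjusted p = 0.01005) and Slc38a1, not well above background in dying neurons, by at least 4.89-fold (adjusted p = 0.0191).

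Among the other carriers of glutamate and related amino acids, 2 of 6 rose and 1 fell in dying neurons. The rises were of Slc1a5, a neutral amino acid exchanger, with 4.69 and 4.10 in dying against 1.71 and -0.41 in sham neurons (adjusted p = 0.00759; well above background on 1 of 2 sham arrays), and of Slc1a7, at least 2.35-fold higher (adjusted p = 0.00918) since it was well above background on no sham array. The fall was of Slc17a8, the third vesicular glutamate carrier, with -2.26 and -1.28 in dying against 1.39 and 0.39 in sham neurons (adjusted p = 0.0195; well above background on 1 of 2 dying arrays). The folds against dim arrays are lower bounds, in which the dim group takes the higher of the probe's own signal and the lowest signal marked well above background. Of the transporter-binding proteins 0 of 1 tested and of the other vesicular carriers 0 of 2 tested passed.

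The 10 falls became 8 with 75th percentile scaling, 3 with quantile normalization, 4 with scaling to the probes well above background, 6 with the authors' values and 0 with normexp, and the count of 2 rises became 0 with normexp, with the filter on all 4 arrays and without sham replicate 2. Without dying replicate 1 there were 7 falls, without dying replicate 2 there were 13, without sham replicate 2 there were 6 and without sham replicate 1 there was 1. In surviving against sham neurons 27 genes were tested and Gls2 (-1.65, adjusted p = 0.0434) and Slc38a2 (-1.92, adjusted p = 0.0226) fell, while Slc1a7 was at least 2.66-fold higher (adjusted p = 0.0186), where 6.82% of all probes were higher and 12% lower. The median of -0.49 turned to 0.29, 0.25, 0.48, 0.39 and 0.44 under the other scalings, the authors' values and normexp in the order above, and 0 of these genes passed without any of the sham or surviving arrays. Between surviving and dying neurons 0 of 26 passed, with a median of 1.02 beside 0.14 for all probes, and 0 of 23 passed between sham and naive neurons. Without dying replicate 2, 9 of 26 were higher in surviving than in dying neurons, beside 3241 of 28203 probes of the array, and without dying replicate 1 there were 0.

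The genes whose profile over the 8 arrays was most like that of each member were found among 6520 named probes with signal above background on every array, by the root mean square difference between centred log2 profiles. Nearest to Slc1a1 were Mal2, Ppp2r2b and Nell1, each at 0.10, where the median over all candidates was 0.95. For Slc1a2 they were Ptpre (0.11), Tceal8 (0.11) and Lrp3 (0.12), and for the first Slc1a3 probe Ptprz1 (0.12), Csrp2 (0.13) and Pxmp2 (0.16). Slc17a7 was followed less closely, by Def8 (0.34), Insig2 (0.35) and Mtm1 (0.38), and Slc17a6 least, by Plcb4 (0.67), Prkcd (0.75) and Adra1b (0.79). Between the 6 member probes above background on all arrays, the closest profiles were those of Slc1a1 and Slc1a2 A_44_P545654 (0.40), then the Slc1a3 probes (0.56), then Slc17a7 with Slc1a2 A_44_P545654 (0.62) and with Slc1a1 (0.65), and next Slc1a2 A_44_P545654 with the second Slc1a3 probe (0.67).

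Because Slc1a1, Slc1a2 and Slc17a7 had the closest profiles between different genes, though narrowly, their promoter windows were looked up in the RefSeq table of build GRCr8, from 250 bases before to 50 bases after the start. Of the 5 genes 4 matched, with 7 windows; Slc1a1 had no entry. Windows are shown for the Slc1a2 start at the gene's 5′ end, chr3:109459859-109460158 on the plus strand, and for Slc17a7, chr1:104785955-104786254 on the plus strand, with GGGCGG or its reverse complement CCGCCC in capitals.
Slc1a2: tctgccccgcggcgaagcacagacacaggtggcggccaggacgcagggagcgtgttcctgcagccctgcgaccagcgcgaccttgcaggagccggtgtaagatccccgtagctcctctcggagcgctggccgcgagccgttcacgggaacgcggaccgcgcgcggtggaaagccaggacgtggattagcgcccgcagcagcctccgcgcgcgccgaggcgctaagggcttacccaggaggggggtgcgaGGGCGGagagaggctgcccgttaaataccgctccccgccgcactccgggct
Slc17a7: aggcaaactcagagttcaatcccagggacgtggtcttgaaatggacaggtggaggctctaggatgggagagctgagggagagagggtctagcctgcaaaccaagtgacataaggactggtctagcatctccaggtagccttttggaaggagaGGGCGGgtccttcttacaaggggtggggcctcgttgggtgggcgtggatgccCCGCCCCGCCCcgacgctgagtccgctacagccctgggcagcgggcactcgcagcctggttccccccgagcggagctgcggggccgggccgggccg
The Slc1a2 window held 1 match and the Slc17a7 window 3, of which the last pair overlap, and the windows were 71% and 64.7% G and C. GGGCGG was found on either strand in 33.1% of 33469 windows of this length, so a match is common. The other Slc1a2 window, the 3 of Slc1a3 and the 1 of Slc17a6 held no match and were 46.3% to 50% G and C. TGACGTCA and TATAAA, searched on both strands as well, were in none of the 7 windows and in 1.83% and 14.2% of all windows.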

How the data were processed

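Per the file headers, the authors scanned 8 one-colour arrays, and Agilent Feature Extraction 9.1.3.1 gave a background-corrected processed signal per spot, an intensity on a linear scale. The deposited series table holds a normalized signal per probe, which equals the scanner signal divided by 1 constant per array within 5% for at least 99.97% of the values above 1 on each array. The methods name division by the median of the array, yet the table's medians per array ran from 0.13 to 0.28, so the constant was not the median of all probes; its basis is not given in the sources used here.

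Spots marked non-uniform were left out, spots of a probe averaged, signals divided by the array median (50th percentile), floored at 0.01 and log2-transformed. Differences came from limma 3.58.1 in R 4.3.3, with 4 group means fitted to all 8 arrays and Benjamini-Hochberg adjustment over probes marked well above background in both replicates of either group. The fit was tested on simulated data whose spread was made smaller than that measured, so its behaviour at the measured spread was not tested. List genes were read by the probe with the highest mean. Lists covered glutamate handling and markers of 7 cell types. A gene of the handling lists is not reported here. The members and lists were chosen with earlier results of these data known. The per-gene median division of the methods was not applied. Other scalings, background correction, floors, filters and fits were tried. The number of arrays limits the precision.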

Additional observations from a re-analysis of the deposited data

How the results depend on the processing

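Each comparison was recomputed under 11 other settings and without each of the 8 arrays; scaling to the probes well above background, and the crossed pairing below, were chosen after seeing the data. With a replicate block the counts of probes past the threshold were 0 for surviving against dying, 3487 for surviving against sham, 10396 for dying against sham and 0 for sham against naive neurons, and the only member call it changed was the second Slc1a3 probe in dying against sham (adjusted p = 0.0555). The labels give no pairing beyond shared numbers; the same-numbered deviations of surviving and dying replicates correlated at -0.19, and with the numbers crossed 466 probes passed in the 4-array fit. Normexp left 0 calls in both comparisons with sham; the cause was not tested. The filter on all 4 arrays left 3116 calls in surviving and 7235 in dying against sham, of fewer probes tested. Only the 4 arrays compared gave 12164 calls in surviving against sham and 115 in sham against naive, the authors' values 2 in surviving against dying, and quantile normalization 1 in sham against naive neurons; the cause was not tested. Leaving out single arrays moved the counts from 0 to 5989 for surviving against dying, from 253 to 8552 for surviving against sham, from 3051 to 13413 for dying against sham and from 0 to 23 for sham against naive neurons; a lone array is there assumed to vary like the other groups. Signs of members turned with normexp for Slc1a3 in surviving against dying (0.82 and 0.63) and surviving against sham (0.087), for Slc1a2 there (0.057) and for Slc17a6 in sham against naive neurons (0.74), with quantile normalization for Slc1a2 in surviving against sham (0.042) and Slc1a3 in sham against naive neurons (-0.010), and for the first Slc1a3 probe in dying against sham with 75th percentile scaling (0.35), quantile normalization (0.56), the authors' values (0.43) and scaling to the probes well above background (0.64). Without single arrays, Slc17a7 ran from -0.42 to 2.06 in surviving against dying, the first Slc1a3 probe from -0.96 to 0.22 in dying against sham and Slc17a6 from -1.84 to 1.297 in sham against naive neurons. Signal over background limits the Slc1a2 splice variant probe, which no array measured.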
